A study of Mus musculus with 8 samples.

Results

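Retinoid genes were examined in fat progenitor cells sorted by the surface protein CD9. The set holds 9 genes: Rbp4, Rdh10, Dhrs3, Aldh1a1, Aldh1a2, Aldh1a3, Crabp1, Crabp2 and Rarb. They were chosen by name for their roles in retinoid synthesis, binding and response, out of 19057 genes named on the array. The choice was made with earlier results of these data known. In all, 15 probes carried their symbols. A probe was kept for testing if its signal stood above background, at a detection p under 0.05, on at least 4 of 8 arrays. This kept 8 probes of 6 members, among 10724 genes tested in all. Crabp1, Crabp2 and Rarb had no probe past this filter, so they have no test and are described by their signals.

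The cells came from epididymal white fat of lean C3H/HeOuJ mice aged 3 months, dissociated with collagenase. Every sample title carries the word CHOW, for a chow diet. Both fractions were sorted from the stromal vascular cells as CD45- CD31- Gp38+ PDGFRα+ progenitors, and they differ in the gate on CD9, high or low. Each fraction is represented by 4 samples on 4 arrays, replicates 1 to 3 on slide 1 and replicate 4 on slide 2. Titles and cell type labels agree on the fraction of every sample, although another label calls the CD9low cells high in CD9 and the gate text gives the CD9high gate for both. Whether a sample is 1 animal or a pool is not stated in the labels. Each p-value rests on the spread among the 4 samples of a fraction, which may be technical, and on no other replication. The limma test used below draws each gene's spread toward that of all genes tested. In sorted cells in bulk, fewer cells of a type and less RNA per cell cannot be told apart.

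Retinoic acid is made from retinol, vitamin A, in 2 oxidation steps. Retinol circulates bound to the plasma carrier RBP4, is oxidised to retinal by dehydrogenases such as RDH10, and can be re-formed from retinal by reductases such as DHRS3. The retinaldehyde dehydrogenases ALDH1A1, ALDH1A2 and ALDH1A3 turn retinal into retinoic acid. Inside the cell retinoic acid is held by the binding proteins CRABP1 and CRABP2, and in the nucleus it activates the receptors RARα, RARβ and RARγ, which bind DNA as partners of RXR. Fat is a store of retinol, and retinoic acid is known to restrain the early steps of adipocyte differentiation.

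The receptors bind pairs of a short half-site, and Rarb carries a classical pair in its own promoter, so that it serves as a read-out of retinoic acid. Its window is shown because it lets the response element be seen beside the signal of the gene. The bases before a Rarb start site in RefSeq, GRCm38.p6 chr14:16575477-16575726, minus strand, are given 5′ to 3′, with the direct repeat in capitals.
Rarb: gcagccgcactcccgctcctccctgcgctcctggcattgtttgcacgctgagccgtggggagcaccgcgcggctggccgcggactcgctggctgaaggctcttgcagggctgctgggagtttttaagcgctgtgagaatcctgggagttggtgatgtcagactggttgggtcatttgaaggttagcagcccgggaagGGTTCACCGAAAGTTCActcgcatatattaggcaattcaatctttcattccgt
The repeat joins 2 half-sites across a spacer of 5 bases and ends 36 bases before the start site. It was found by a search, on both strands, for any pair of half-sites in the same direction with 5 bases between them, where a half-site is AGGTCA itself, its variant GGGTCA with another leading base, the variant AGTTCA with an inner change, or the variant GGTTCA with both. Of 32851 promoter windows in the RefSeq table, 32 (0.0974%) held such a pair. The table had 10 windows of 6 members, those of Aldh1a1, Aldh1a2, Rbp4, Crabp1, Dhrs3 and Rarb, and 1 of the 10 held it. Pairs with a spacer of 1 or 2 bases, found in 0.222% and 0.268% of all windows, were in 0 of the 10. A match only describes the letters in the window.

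Values below are normalized log2 intensities with the arrays given in the order of replicates 1 to 4, and differences are CD9high minus CD9low on the log2 scale, with their standard error (SE) and the 95% interval of limma's moderated test. Cd9 itself stood at 8.44 ± 0.14 (SD, n = 4) in CD9high and 4.80 ± 0.52 (SD, n = 4) in CD9low, which checks the labels (exact two-sided permutation p = 0.0286, the lowest value this design allows). The progenitor genes Pdgfra and Pdpn were above background on every array and differed by 0.10 and -0.05, neither past the test. Genes of the negative gates were also above background: Pecam1 (CD31) on 4 CD9high and 4 CD9low arrays, and Ptprc (CD45) on 2 CD9high and 3 CD9low arrays. They differed by -0.40 and -0.18, neither past the test. Between 41.1% and 51.1% of probes were above background on an array. CD9low replicate 2 had the lowest share and stood apart from its group: its correlation with the other CD9low arrays across genes was 0.857 to 0.872, against 0.959 to 0.975 among the other 3. The difference without it is therefore given for each of the 6 tested members. It is also given for the pathway genes of smallest p, up to 4 per list, where it moved by over 1.5 times.

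Of the 6 retinoid genes tested, 0 passed a limma adjusted p of 0.05 between the fractions, where 181 of 10724 genes (1.69%) passed, and 2, Rbp4 and Aldh1a2, had an unadjusted p under 0.05, as 10.7% of all genes did. Rbp4, the retinol carrier, came nearest and was the member with the largest difference. Its level was 8.26, 7.79, 7.97 and 7.88 on the CD9high arrays. On the CD9low arrays it was 7.25, 6.96, 6.85 and 7.15. Every CD9high array lay above every CD9low array, as for 3.92% of all genes tested. The difference was 0.92 (SE 0.21, interval 0.45 to 1.39), which is 1.89-fold, with an unadjusted p of 0.00134 and a limma adjusted p of 0.0670. The deposited signals, before normalization, ran from 203 to 282 in CD9high and from 73.3 to 129.9 in CD9low, also without overlap. The difference was 0.99 on slide 1 and 0.73 on slide 2, and without CD9low replicate 2 it was 0.89 (limma adjusted p = 0.0686).

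**Figure D1:**
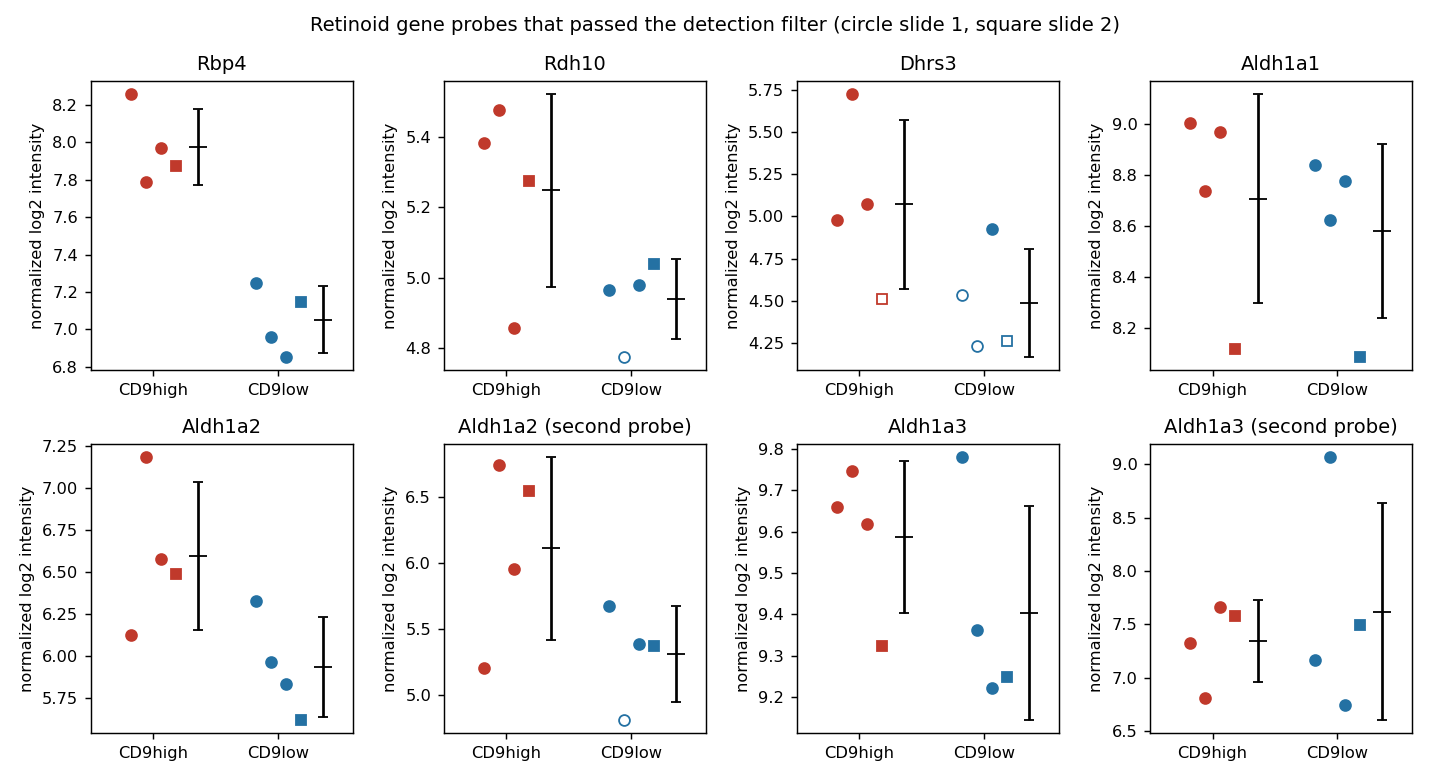
Normalized log2 intensity (vertical axes) of the 8 probes of retinoid genes that passed the detection filter, for CD9high in red and CD9low in blue. Each point is an array (circle slide 1, square slide 2; filled where the detection p is under 0.05) and the bar is the mean with its SD over 4 arrays. Rbp4 is the only panel in which the fractions do not overlap, and both slide 2 arrays are the lowest of their fraction for Aldh1a1.

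Rdh10 encodes the dehydrogenase that carries out the step from retinol to retinal. It stood at 5.38, 5.48, 4.86 and 5.28 in CD9high and at 4.97, 4.77, 4.98 and 5.04 in CD9low. CD9high replicate 3 lay below 3 of the 4 CD9low arrays, so that the fractions overlapped. The difference of 0.31 (SE 0.22, interval -0.17 to 0.79, limma adjusted p = 0.674) did not pass. The probe was above background on 4 CD9high and 3 CD9low arrays, all of them dim. Without CD9low replicate 2, the array on which it was not above background, the difference was 0.25, and with an offset, the constant added to each intensity before the log, of 50 in place of 16 it was 0.16.

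Dhrs3 encodes the reductase that returns retinal to retinol and is itself known to be induced by retinoic acid. Of its probes, ILMN_1225125, paired with a cDNA record, passed the filter. It was above background on 3 CD9high arrays and 1 CD9low array, so that it entered the test mainly through the fraction in which it is brighter. Its level was 4.98, 5.72, 5.07 and 4.51 in CD9high against 4.53, 4.23, 4.93 and 4.26 in CD9low. CD9high replicate 2 was the brightest array, and CD9high replicate 4 fell within the range of CD9low. The difference of 0.58 (SE 0.29, interval -0.06 to 1.23, limma adjusted p = 0.534) did not pass, and it was 0.36 without CD9high replicate 2 and 0.50 without CD9low replicate 2. Its size follows the handling of background, from 0.27 with an offset of 50 to 1.01 in the authors' normalized values. The Dhrs3 probe ILMN_2759095, paired with the RefSeq transcript, was above background on 0 of 8 arrays, with deposited signals all below 0. The probes of Dhrs3 therefore disagree on whether the gene is above background.

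The retinaldehyde dehydrogenases make retinoic acid, and all 3 of their genes were above background on every array with the probe used for the gene. Aldh1a1 stood at 9.0, 8.74, 8.97 and 8.12 in CD9high and at 8.84, 8.63, 8.77 and 8.09 in CD9low. The fractions overlapped along almost their whole range, and the difference was 0.12 (SE 0.27, interval -0.48 to 0.73, limma adjusted p = 0.905). Replicate 4, the only one on slide 2, was the lowest of either fraction, and slide 2 differed from slide 1 by -0.72 (SE 0.24, unadjusted p = 0.0142, limma adjusted p = 0.900 over all genes). The slide and replicate 4 cannot be told apart. The difference between fractions was 0.16 on slide 1 and 0.03 on slide 2. Leaving out CD9high replicate 4 gave 0.32 and leaving out CD9low replicate 4 gave -0.040. It was 0.03 without CD9high replicate 1, 0.04 without CD9high replicate 3, 0.21 without CD9low replicate 1, 0.14 without CD9low replicate 2 and 0.19 without CD9low replicate 3.

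Aldh1a2, which encodes the enzyme of mesoderm in the embryo and of mesothelium in the adult, had 2 tested probes. The brighter, ILMN_2630749, stood at 6.13, 7.18, 6.57 and 6.49 in CD9high and at 6.32, 5.96, 5.83 and 5.62 in CD9low. CD9high replicate 1 lay below CD9low replicate 1, while the other 3 CD9high arrays lay above all CD9low arrays. The difference was 0.66 (SE 0.27, interval 0.05 to 1.27) with an unadjusted p of 0.0354 and a limma adjusted p of 0.420. The other probe, ILMN_2630753, gave a like pattern: 5.20, 6.74, 5.95 and 6.55 in CD9high against 5.67, 4.81, 5.39 and 5.37 in CD9low, a difference of 0.80 (SE 0.35, limma adjusted p = 0.495 over all probes). On this probe CD9low replicate 2 was not above background. The difference on the brighter probe was 0.59 on slide 1, 0.87 on slide 2 and 0.67 without CD9low replicate 2.

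Aldh1a3 had 3 probes that disagreed. The brightest, ILMN_2761436, paired with the RefSeq transcript, stood at 9.66, 9.75, 9.62 and 9.32 in CD9high and at 9.78, 9.36, 9.22 and 9.25 in CD9low. CD9low replicate 1 was the highest array of all, and the difference of 0.18 (SE 0.22, interval -0.31 to 0.68, limma adjusted p = 0.812) did not pass. ILMN_1237578, paired with a cDNA record, read 7.33, 6.81, 7.66 and 7.58 in CD9high but 7.17, 9.07, 6.75 and 7.49 in CD9low. Its difference was -0.28 (SE 0.44, limma adjusted p = 0.881 over all probes), and CD9low replicate 2, the array that stands apart, held the top value. ILMN_1235590, also paired with a cDNA record, was above background on 0 of 8 arrays. With the mean of both tested probes in place of the brighter, the Aldh1a3 difference turned to -0.046 (limma adjusted p = 0.967). The brighter probe gave 0.31 without CD9low replicate 1 and 0.17 without CD9low replicate 2.

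The genes of the intracellular binding proteins were at background. Crabp1 was above background on 0 of 8 arrays, with deposited signals from -12.9 to -0.209 in CD9high and from -9.47 to 1.71 in CD9low. Crabp2, whose product carries retinoic acid to the nuclear receptors, was likewise above background on 0 of 8 arrays. Its signals were nevertheless mostly above 0, from 1.51 to 10.04 in CD9high and from -1.16 to 6.11 in CD9low, and its lowest detection p was 0.0726, on CD9high replicate 2. A signal at background sets no level for a gene, and no fold is given for either.

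Rarb, the receptor gene with the response element printed above, was at or near background with all 3 of its probes. ILMN_1246864 gave deposited signals of 0.315, 3.56, 6.18 and -1.84 in CD9high and of 12.7, 5.90, 8.04 and 25.0 in CD9low. It was above background on CD9low replicates 1 and 4 only, and CD9low replicate 2 lay below the highest CD9high array, although after normalization all CD9low arrays lay above all CD9high arrays. At background neither order sets a level. ILMN_2617194 was above background on CD9high replicate 3 (12.1) and CD9low replicate 2 (13.9), and ILMN_2886828 on 0 of 8 arrays. The probes thus name different arrays, and with no probe past the filter no test was made on the set of genes tested. When every named probe was fitted without the filter, Rarb did not pass (limma adjusted p = 0.435 over 19057 genes).

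**Figure D2:**
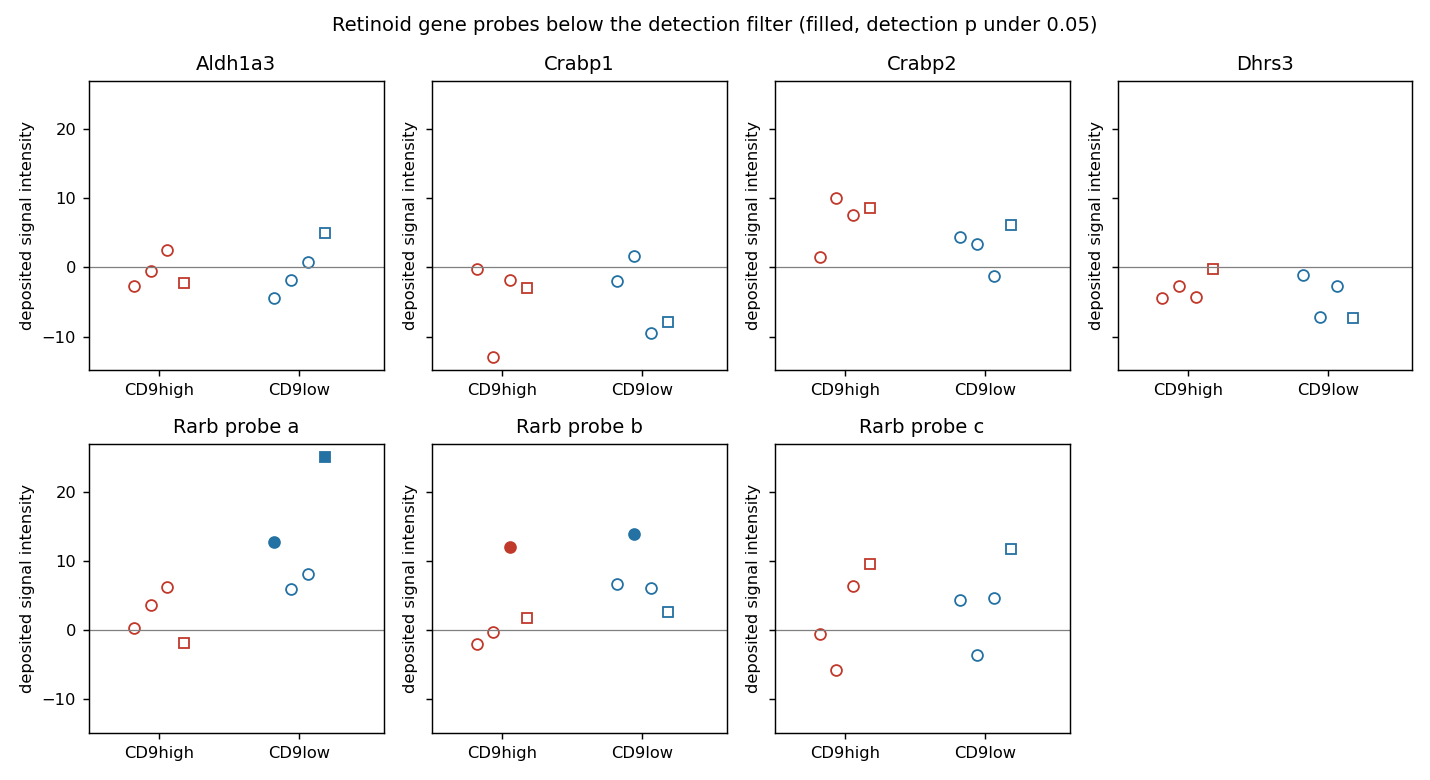
Deposited signal intensity (vertical axis, background-subtracted, not normalized) of the 7 probes of retinoid genes that missed the detection filter, for CD9high in red and CD9low in blue (circle slide 1, square slide 2). Filled points are arrays with a detection p under 0.05: 4 of 56 readings, all of Rarb, where probes a, b and c are ILMN_1246864, ILMN_2617194 and ILMN_2886828.

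Among the 6 tested members the differences ran from 0.12 (Aldh1a1) to 0.92 (Rbp4), with a median of 0.45, while the median of all genes tested was -0.04 and 45.6% of all genes lay above 0. Members that passed the filter through a brighter CD9high fraction, as Dhrs3 mainly did, weigh on that median. The members were also chosen with earlier results of these data known, so their common direction is no test of retinoid genes. The fractions did not overlap for 1 of the 6 members and for 7.69% of all genes. The test result of Rbp4 depended on the processing. It passed with an offset of 50 (0.78, limma adjusted p = 0.0396), when dim probes were kept in (limma adjusted p = 0.0342) and with probes of a gene averaged (limma adjusted p = 0.0397). In the other 15 of 18 alternatives it did not pass, up to an adjusted p of 0.298 on slide 1 alone. The other 5 members passed in 0 of their alternatives.

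**Figure D3:**
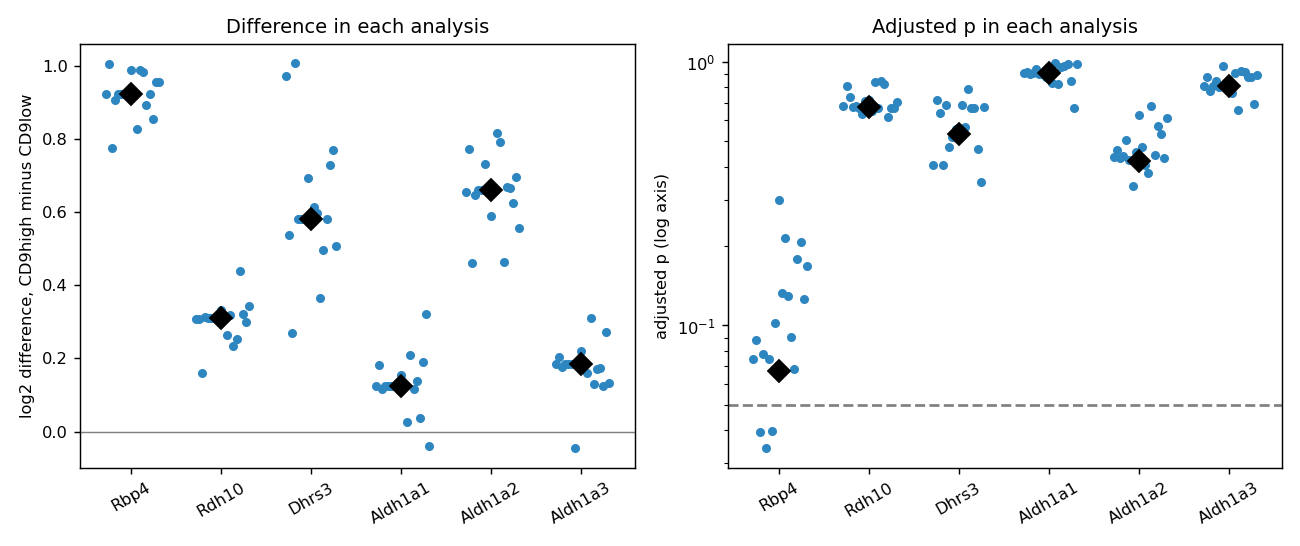
Log2 difference of CD9high minus CD9low (left) and its limma adjusted p on a log axis (right) for the 6 tested retinoid genes. Black diamonds are the values given in the text, blue points are the alternative analyses, and the dashed line marks an adjusted p of 0.05. Rbp4 keeps a difference between 0.78 and 1.00 and crosses the line in 3 of 18 alternatives, while Aldh1a1 and Aldh1a3 each fall below 0 in 1.

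Other genes of the pathway were read from 5 lists of 64 genes, of which 59 were on the array and 32 were tested. Of the 32, 0 rose and 0 fell by the limma adjusted p, and 3 had an unadjusted p under 0.05 (10.7% of all genes did). The median difference was -0.06, and 12 of the 32 lay above 0 (45.6% of all genes did). Of the 11 tested genes that interconvert retinol and retinal, Rdh5, a retinol dehydrogenase gene best known from the eye, read 6.08, 6.13, 6.12 and 6.12 in CD9high against 5.28, 5.84, 5.36 and 5.60 in CD9low. Its fractions did not overlap, and its difference was 0.59 (SE 0.21, limma adjusted p = 0.313). Retsat, which encodes an enzyme that saturates retinol and is known as a target of PPARγ in fat, differed by -0.55 (SE 0.25, limma adjusted p = 0.477). With the mean of its tested probes in place of the brightest, Retsat differed by -1.06 (limma adjusted p = 0.0818). The alcohol dehydrogenase gene Adh1, whose product also oxidises retinol, differed by -0.40 (limma adjusted p = 0.610) and Dhrs7 by -0.32 (limma adjusted p = 0.644), or by -0.081 with the mean of its tested probes. Of the genes that break down retinoic acid, Cyp26b1 was the only one tested, at 0.29 (limma adjusted p = 0.717), and was above background on 3 CD9high and 1 CD9low arrays. Without CD9low replicate 2 its difference was 0.46, and it ran from 0.11 with an offset of 50 to 0.79 in the authors' normalized values.

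Of the genes for retinoid binding, uptake and storage, 2 of the 10 on the array were tested. The retinol-binding gene Rbp7, known from fat and its endothelium, varied more within than between fractions, at 9.11, 10.03, 9.44 and 7.34 in CD9high and 9.51, 10.63, 9.91 and 8.07 in CD9low. In both fractions replicate 2 was the highest and replicate 4, on slide 2, the lowest, and the difference was -0.55 (SE 0.62, limma adjusted p = 0.798). Left out in turn, CD9low replicate 2 gave -0.18, CD9high replicate 2 gave -0.90, CD9low replicate 4 gave -1.03 and CD9high replicate 4 gave 0.00027. With the mean of its tested probes Rbp7 differed by -0.31. Dgat1, whose product can esterify retinol as well as diacylglycerol, differed by -0.38 (limma adjusted p = 0.752), by -0.062 without CD9low replicate 2, its brightest array at 6.60, and by -0.23 without CD9high replicate 3. Stra6, which encodes the cell surface receptor for RBP4, and Lrat, which encodes the main retinol esterifying enzyme, were above background on 0 of 8 arrays.

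Of 11 receptor and coregulator genes on the array 8 were tested. Rara and Rarg, the other retinoic acid receptor genes, differed by 0.05 (limma adjusted p = 0.971) and 0.12 (limma adjusted p = 0.903). Rara read 6.03, 5.11, 5.66 and 6.01 in CD9high and 6.06, 5.44, 5.77 and 5.37 in CD9low. Rarg read 6.29, 6.55, 6.35 and 6.66 in CD9high and 6.05, 6.96, 6.01 and 6.35 in CD9low, with CD9low replicate 2 the highest array. Neither was run with an array left out, so how far single arrays move these small differences is not given. The partner receptor gene Rxra differed by -0.40 (limma adjusted p = 0.653). Rxra differed by -0.24 without CD9high replicate 2 and by -0.25 without CD9low replicate 2. The coactivator genes Ep300, Crebbp and Ncoa2 differed by 0.36, -0.48 and 0.23, with limma adjusted p of 0.695, 0.712 and 0.876. These values moved with single arrays: Crebbp was -0.075 without CD9high replicate 2, Ep300 0.23 without that array and 0.20 without CD9low replicate 2, and Ncoa2 0.020 without CD9low replicate 2 and -0.10 without CD9high replicate 1. With the mean of its tested probes Ncoa2 differed by 0.063. Of the response genes 10 of 14 were tested. Their median difference was -0.20, and 1 of the 10, Rai14, lay above 0 (45.6% of all genes did). Meis1, a homeobox gene that retinoic acid can induce, read 8.39, 7.94, 8.49 and 8.75 in CD9high and 9.01, 9.52, 9.15 and 8.92 in CD9low. Its CD9high arrays all lay below its CD9low arrays, by -0.76 on average (SE 0.25, limma adjusted p = 0.246). Rai14, named for its induction by retinoic acid, stood the other way at 1.26 (SE 0.47, limma adjusted p = 0.341), with no overlap, but 0.71 without CD9low replicate 2. Hic1 differed by -0.43 (limma adjusted p = 0.647) and Meis2 by -0.34 (limma adjusted p = 0.747). Without CD9low replicate 1 Hic1 differed by -0.28, and Meis2 differed by -0.050 without CD9high replicate 2 and by -0.53 without CD9high replicate 4.

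**Figure D4:**
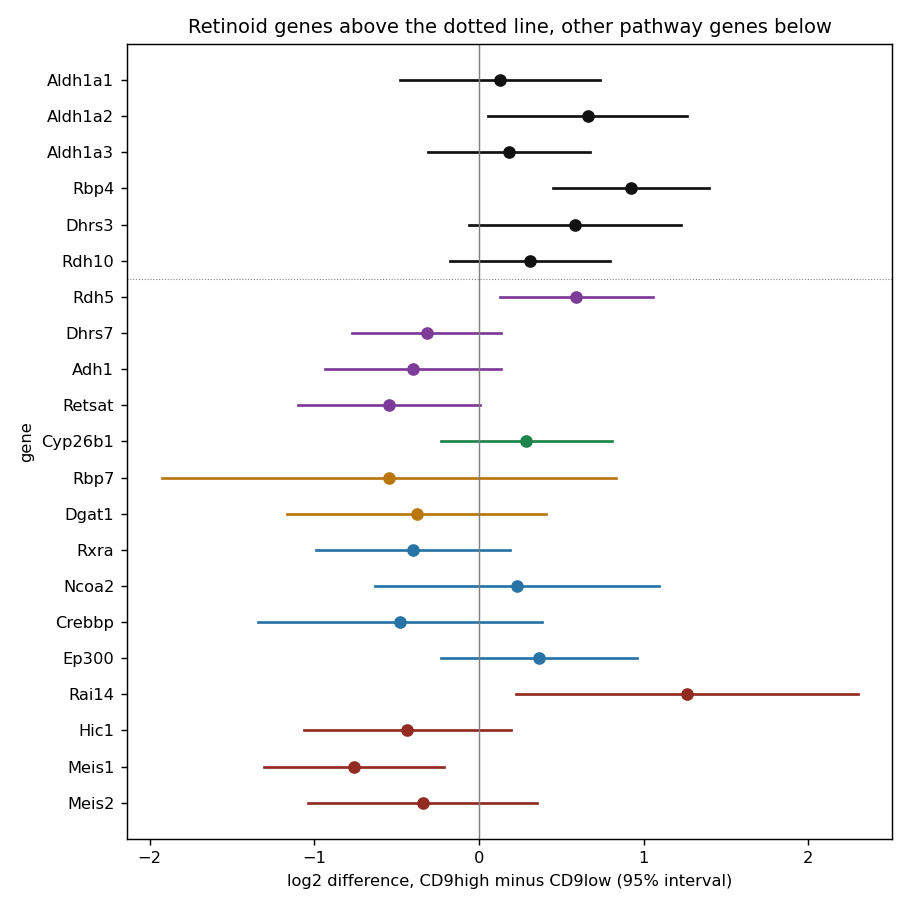
Log2 difference of CD9high minus CD9low (horizontal axis) with its 95% interval for the 6 tested retinoid genes (black, above the dotted line) and 15 other pathway genes (below; purple for retinol and retinal interconversion, green for retinoic acid breakdown, ochre for binding and storage, blue for receptors and coregulators, red for response genes). The intervals of Rbp4, Aldh1a2, Rdh5, Rai14 and Meis1 leave out 0, before any adjustment for the number of genes.

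Genes of cell types that the sort could still hold were read beside these results. Adipocytes secrete RBP4, and of 6 tested adipocyte markers 1 fell and 0 rose in CD9high. The summed normalized intensity of these markers was 5275 to 6627 in CD9high and 9928 to 11810 in CD9low. Most of it came from Lpl and Fabp4, and the other 4, chosen for this sum after their values were seen, summed to 151 to 349 in CD9high and 172 to 333 in CD9low, which overlap. Lpl, which encodes lipoprotein lipase and is also expressed in preadipocytes, fell by 1.01 on the log2 scale (limma adjusted p = 0.0307), while Fabp4 differed by -0.72 (limma adjusted p = 0.395). Of the dimmer markers, Lipe differed by -0.44, Cidec by -0.31, Adipoq by -0.07 and Lep by 0.00015, and none of them passed. Lipe was above background on 1 CD9high and 4 CD9low arrays. Of the 6 adipocyte markers, 1 lay above 0 (45.6% of all genes did), with a median of -0.38. The fractions did not overlap for 2 of the 6, Lpl and Lipe, and for 7.69% of all genes. The lipid droplet gene Plin1 was above background on 0 of 8 arrays. Mesothelial cells express Aldh1a2, and of 5 tested mesothelial markers 1 fell and 0 rose in CD9high. Their summed intensity was 602 to 940 in CD9high and 1258 to 1856 in CD9low, and the lower sum came from the tight junction gene Cldn15, which fell by 1.70 on the log2 scale (limma adjusted p = 0.00393). The other 4 tested markers, summed after their values were seen, stood the other way, at 277 to 557 in CD9high and 189 to 351 in CD9low, with overlap. They did not pass: Msln differed by 0.04, Upk3b by 0.48, Gpm6a by 0.86 and Krt8 by 0.06, and Upk1b and Krt19 were above background on 0 of 8 arrays. Gpm6a read 7.43, 8.72, 7.16 and 8.30 in CD9high and 7.01, 7.69, 6.87 and 6.60 in CD9low. The part of these cells in the values of Aldh1a2 and Rbp4 was not tested. Of the 7 leukocyte, 8 endothelial, 10 mural, 1 epithelial, 2 Schwann and 9 progenitor markers tested, 0 passed by limma. Of these, 2 had an unadjusted p under 0.05 (10.7% of all genes did), both lower in CD9high. They were the mural gene Notch3 (-0.82) and the progenitor gene Pdgfrb (-0.68). Where 45.6% of all genes lay above 0, 1 of 10 mural markers did (median -0.33) and 1 of 8 endothelial markers (median -0.27). For leukocyte markers it was 2 of 7 (median -0.14) and for progenitor markers 5 of 9 (median 0.10). The brightest leukocyte markers, Lyz2 and Tyrobp, differed by -0.04 and -0.14 but varied widely between arrays. In both fractions they were highest on replicate 2 and lowest on replicate 4, as Rbp7 was. The endothelial markers Pecam1 and Cldn5 had this order in both fractions too, while the other endothelial markers tested did not. Lyz2 ran from 7.18 to 10.07 in CD9high and from 6.78 to 10.46 in CD9low. The summed intensity of the 7 leukocyte markers was 403 to 2143 in CD9high and 340 to 2708 in CD9low. The part of leukocytes or endothelial cells in the values of Rbp7 was not tested. The endothelial Tek and Cldn5 differed by -0.13 and -0.84, and the mural Des and Rgs5 by -0.32 and -0.60. Cdh1 differed by 0.25, Mbp by 0.02, S100b by -0.01, and the progenitor markers Dcn and Lum by -0.18 and 0.23.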

How the data were processed

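Per the labels' protocols, RNA was amplified (Ovation Pico WTA V2) and given a biotin label, and amplification can distort ratios between transcripts. The authors deposited signal intensity and a detection p-value for 45281 probes on 8 arrays with GenomeStudio, per the submitters' processing notes. These intensity values are background-subtracted and not normalized. A second deposited table, read from its equal upper quartiles and maxima, with medians of 9.07 to 9.20, as linear quantile normalized intensity, served as an alternative. Gene symbols came from the platform annotation (34885 probes with 1 gene, 18 with several, 10378 with none).

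limma 3.58.1 in R 4.3.3 (neqc, offset of 16, then log2) normalized the arrays. Dim genes' differences are understated. Each gene was read by the brightest of its tested probes. lmFit and eBayes compared the fractions over 10724 genes with Benjamini-Hochberg adjustment at 0.05, and the fit was tested on simulated data. The simulated differences were larger than that of any member, so the simulation cannot show whether differences of the members' size would be found. The 9 members and the lists (5 of the pathway, 8 of cell type markers) were chosen with earlier results of these data known. Named are the members, the gate genes, per pathway list the 4 genes of smallest p, and markers that passed or were brightest. Others (Rara, Rarg, Stra6, Lrat, Msln, Upk3b, Krt8, Upk1b, Krt19, Adipoq, Lep, Lipe, Cidec, Plin1, Notch3, Pdgfrb) were added after their values were seen. Alternatives changed the background step, normalization, offset, value table, filter, probe rule, slide, replicate block and arrays. The number of arrays limits precision. Where other list genes have no named probe they are not analysed here.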

Additional observations from a re-analysis of the deposited data

Results flagged for a closer look

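Within 1 fraction, 1 of the 46 groups of 4 arrays examined for the retinoid probes and the named pathway genes held an array far from the rest. Chance gives about 1 in 20. For Ep300 in CD9high, replicate 2 stood at 7.59 and the other 3 arrays between 7.03 and 7.08, so that the gap was 0.912 of the whole range, more than the 95% limit of Dixon for 4 arrays.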

How the results depend on the processing

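Over all genes, 181 passed the test, 48 on slide 1 alone, 76 with the replicate block, and between 54 (without CD9high replicate 1) and 230 (without CD9low replicate 2) with 1 array left out. Of the retinoid members 0 passed, but 1, Rbp4, did with an offset of 50, with no detection filter and with the mean of a gene's tested probes. Under the last 2 of these its difference is unchanged and its SE, 0.21, is 0.13 with no filter, where the number of genes also differs, and 0.19 with the mean of probes. With 1 array left out 0 members passed, and 0 other pathway genes passed in any alternative. The replicate block gave Rbp4 an adjusted p of 0.133 (limma). The block changed no call of the members, Cd9 or the named pathway genes. For Rbp7, lower in CD9high at every number, it took the SE from 0.62 to 0.20 and the unadjusted p from 0.400 to 0.0295 (limma adjusted p = 0.385). The labels give shared numbers but not what they mark: deviations of same-numbered arrays correlated by -0.0996 to 0.223 and 5 of 8 arrays correlated best with their own number. Of the single genes run in the alternatives, which leave out Rara and Rarg, direction turned for Aldh1a3 with the mean of its probes (-0.046). With 1 array left out it turned for Aldh1a1 (-0.040 to 0.32, lowest without CD9low replicate 4) and Ncoa2 (-0.10 to 0.43, lowest without CD9high replicate 1). It also turned for Rbp7 (-1.03 to 0.00027, highest without CD9high replicate 4). The cause was not tested, and none of these 4 genes passed the test in any of these analyses. With detection required on 6 of 8 arrays Dhrs3 is not tested. Signal over background limits Dhrs3, Rdh10, Crabp1, Crabp2 and Rarb.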
